A study of Mus musculus with 8 samples.

Results

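The genes described here are 10 genes used to recognise mast cells, basophils and eosinophils, in cells that crossed from mother to pup and in the cells of the pups themselves. They were taken as a list of names, chosen with earlier results of these data known but by no rule on their values, and are 10 of the 52784 genes in the count table, of which 25066 had a count in at least 1 of the 8 libraries. Every one of the 10 had more than 3 counts in at least 1 library. Cpa3 (carboxypeptidase A3) and Cma1 (the mast-cell chymase) encode granule proteases of connective tissue mast cells, of which Cpa3 is also used by basophils and some progenitors, and Mcpt8 and Prss34 encode proteases of basophils. Fcer1a and Ms4a2 encode the alpha and beta chains of the high-affinity IgE receptor, Kit the stem cell factor receptor and Gata2 a transcription factor of progenitors, mast cells and basophils. Epx (eosinophil peroxidase) and Prg2 (major basic protein) encode the cargo of eosinophil granules.

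Mast cells, basophils and eosinophils arise from the bone marrow and, in the newborn, from the fetal liver as well. Eosinophil granule proteins are made mainly by maturing cells and then stored, so that their transcripts can be far higher in precursors than in finished cells. Mast cells keep Kit and finish maturing in tissues, whereas basophils and eosinophils circulate, and all of these lineages use factors that bind GATA motifs. Kit and Gata2 are shared with haematopoietic progenitors, so neither marks a mast cell alone.

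The study injected bone marrow cells into mouse fetuses (in utero transplantation, IUT) and asked how maternal dendritic cells (DC) bear on the cells that pass from mother to pup. Bulk RNA was sequenced from trafficked maternal cells, sorted by the H2K-b antigen, and from recipient cells, sorted by H2K-d, harvested from the whole body of pups aged 1 week. All pups were F1 offspring of CD11c-DTR dams on the C57BL/6 (B6) background, whose CD11c promoter drives a diphtheria toxin (DT) receptor, and of BALB/c sires. There were 4 treatments, each with 1 maternal and 1 recipient library, and each library pooled several pups. Uninjected pups received no donor cells. The study took such controls from dams given DT and from dams given saline, and the labels do not say which were pooled here. DC control mIUT pups received 5000000 bone marrow cells of maternal type (B6) on embryonic day 14 after saline had been given to the dam on day 13. DC control pIUT pups received as many cells of paternal type (BALB/c) after saline. DC-depleted pIUT pups received the same paternal cells after the dam had been given DT at 5 ng/g on day 13. F1 cells carry both antigens, B6 donor cells carry H2K-b and BALB/c donor cells carry H2K-d, and how far donor cells were kept out of each sort was not examined here. With 1 library per group, 2 groups cannot be tested against each other, and a test of origin over the 4 treatments was not run. Each difference here compares 2 pooled libraries and its interval covers counting error only. In bulk RNA, fewer cells of a type and less RNA per cell cannot be told apart.

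The libraries held 38543457 to 47965130 counts, and 9125 to 16231 genes reached 10 counts. Values are CPM, counts scaled to a common library size after correction for composition. A gene with 3 counts or fewer was treated as not detected, which is a level of 0.0547 to 0.105 CPM, and folds against such a library at 0 are lower bounds set at 3 counts. The recipient uninjected library and the maternal mIUT library lacked many genes. Of genes at 10 CPM or more in each of the other 7 libraries, 9.51% were under 1 CPM in the recipient uninjected library and 4.86% in the maternal mIUT library, against 0 to 1.26% in the other 6. The leukocyte marker Ptprc (CD45) ranged from 70.2 to 459 CPM in 7 libraries and was at 2.64 CPM in the maternal DC-depleted library, in which the globin gene Hbb-bs reached 86670 CPM. These properties touch the results below and their part in them was not tested.

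The genes lie on 9 chromosomes of the GRCm39 build. Cma1 (14:56178908-56182132) and Mcpt8 (14:56319623-56322730) are neighbours in the protease cluster of chromosome 14, both on the minus strand. Cpa3 lies at 3:20269774-20296362, Prss34 at 17:25517368-25519142, Ms4a2 at 19:11592887-11601083 and Fcer1a at 1:173048851-173054781. Gata2 lies at 6:88170559-88184018, Kit at 5:75735576-75817404, Epx at 11:87754826-87766362 and Prg2 at 2:84789208-84813977. Cpa3, Gata2 and Kit each overlap a noncoding gene on the opposite strand, and Cpa3 and Mcpt8 each contain a microRNA gene. How reads of such overlaps were divided is not given in the sources used here.

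The 200 bases upstream of the start of each gene's main transcript were searched for GATA motifs (the letters AGATAA or TGATAA, or either of them with G in place of the last A) on both strands, because GATA factors act in all 3 lineages and because 7 of the genes followed 1 common order in the recipient libraries. At least 1 motif was found for 7 of the 10 genes, against 20.8% of 21603 such windows of protein-coding genes. The motif began 29 bases upstream of the start in Cpa3, 31 in Prss34, 37 and 11 in Ms4a2, 79 in Cma1, 98 in Prg2, 107 in Fcer1a and 116 in Gata2. No such letters were present in the windows of Mcpt8, Kit and Epx. The 7 genes with a motif are not the 7 of the common order, which holds Mcpt8 and not Prg2. The windows of 3 genes with a motif within 40 bases of the start and of Prg2, the most abundant gene of the list, follow 5′ to 3′ on the strand of the gene, with the motif in capitals (a motif on the other strand appears as its reverse complement, as in Prg2). They span chr3:20296363-20296562 (minus strand), chr17:25517168-25517367 (plus), chr19:11601084-11601283 (minus) and chr2:84810603-84810802 (plus).
Cpa3: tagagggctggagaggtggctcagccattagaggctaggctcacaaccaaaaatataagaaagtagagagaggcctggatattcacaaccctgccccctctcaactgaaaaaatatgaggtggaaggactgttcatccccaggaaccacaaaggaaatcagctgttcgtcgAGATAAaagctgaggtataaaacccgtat
Prss34: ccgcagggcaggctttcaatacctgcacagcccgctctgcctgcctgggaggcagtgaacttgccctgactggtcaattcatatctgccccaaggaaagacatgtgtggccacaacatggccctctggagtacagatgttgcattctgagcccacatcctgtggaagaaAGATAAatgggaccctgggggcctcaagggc
Ms4a2: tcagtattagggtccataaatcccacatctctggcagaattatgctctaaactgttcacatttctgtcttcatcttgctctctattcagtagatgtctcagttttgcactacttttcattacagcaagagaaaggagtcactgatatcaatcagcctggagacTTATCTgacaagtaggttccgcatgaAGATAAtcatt
Prg2: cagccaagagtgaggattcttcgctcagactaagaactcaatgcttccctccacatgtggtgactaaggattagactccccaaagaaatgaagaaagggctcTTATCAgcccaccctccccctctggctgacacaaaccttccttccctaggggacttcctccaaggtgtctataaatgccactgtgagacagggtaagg
A match of these letters is a description of the sequence and not a bound site.

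The 8 mast-cell and basophil genes and the pair of eosinophil granule genes were first summed apart, by their known roles. In order, the maternal libraries of uninjected, mIUT, pIUT and DC-depleted pIUT pups held 245.9, 0.0258, 43.2 and 52.9 CPM over the 8 mast-cell and basophil genes. Kit alone gave the 43.2 CPM after pIUT and 29.1 of the 52.9 CPM after DC-depleted pIUT, so these 2 sums are not a level of mast cells or basophils. The recipient libraries in the same order held 0.31, 100.5, 389.5 and 1158 CPM. For Epx and Prg2 together the maternal libraries held 2.65, 0.0258, 29.8 and 65.4 CPM and the recipient libraries 5323, 269.2, 1318 and 1210 CPM. The uninjected pups thus gave opposite patterns, with more of the mast-cell and basophil transcripts in the maternal library and more of the eosinophil transcripts in the recipient library. The number of the 10 genes detected was 8, 0, 3 and 7 in the maternal and 3, 10, 10 and 10 in the recipient libraries.

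**Figure D1:**
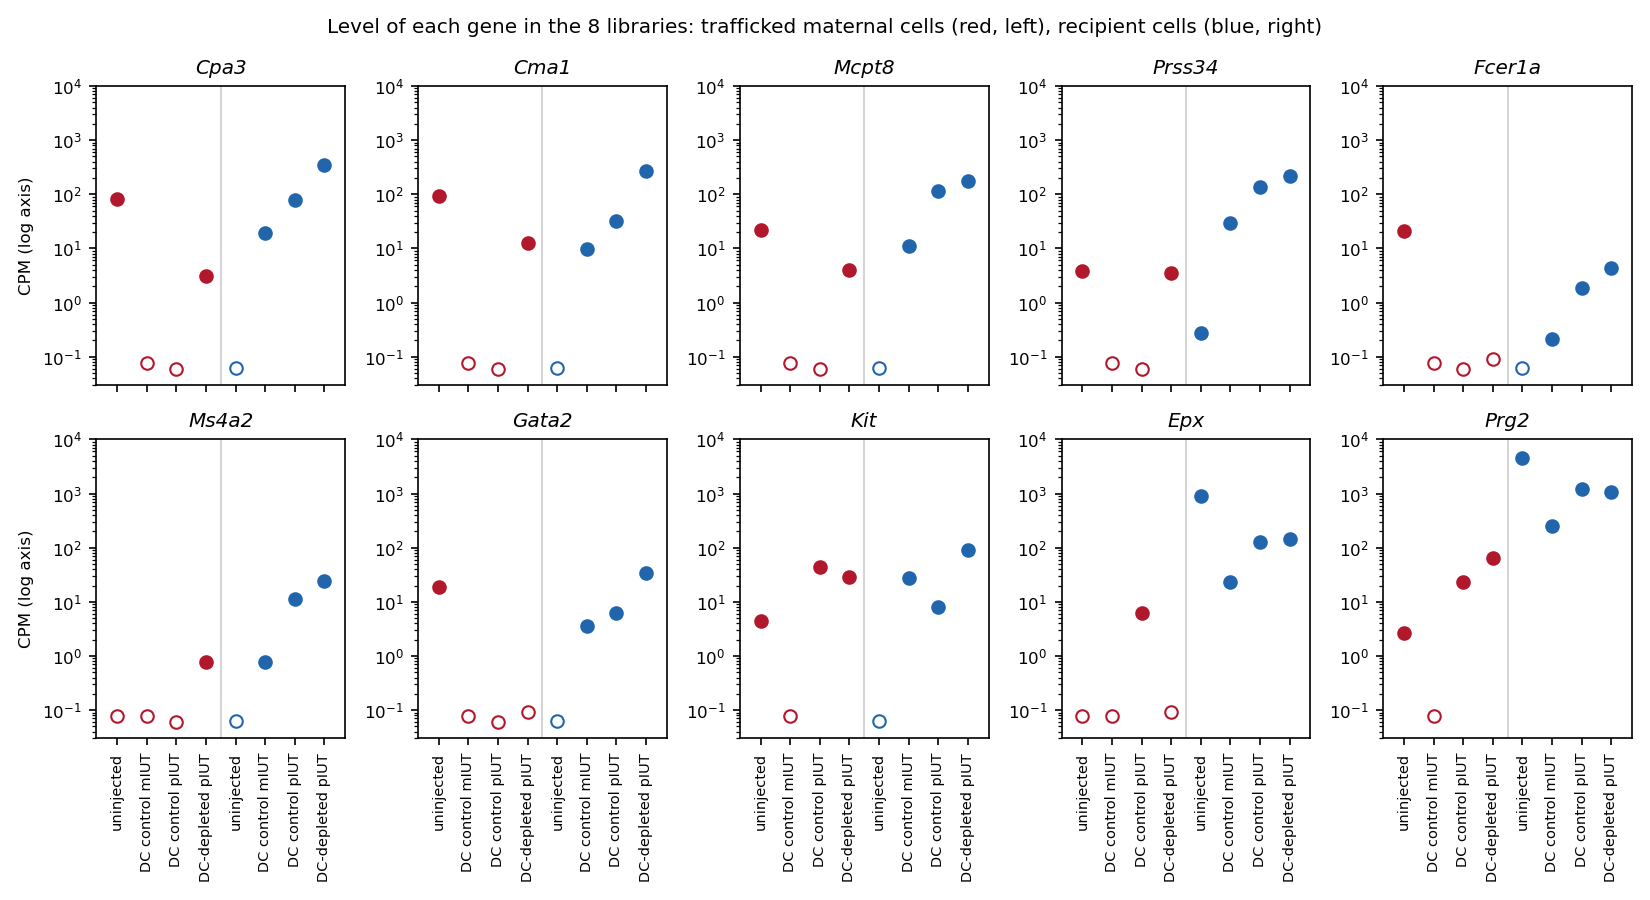
CPM (log axis) of the 10 genes in the 4 maternal (red) and 4 recipient (blue) libraries, 1 point per pooled library. Open points are libraries with 3 counts or fewer, drawn at the level of 3 counts. Cpa3, Cma1, Mcpt8, Prss34, Fcer1a, Ms4a2 and Gata2 stand in 1 order in the recipient libraries, lowest in uninjected and highest in DC-depleted pIUT, whereas Epx and Prg2 are highest in recipient uninjected.

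**Figure D2:**
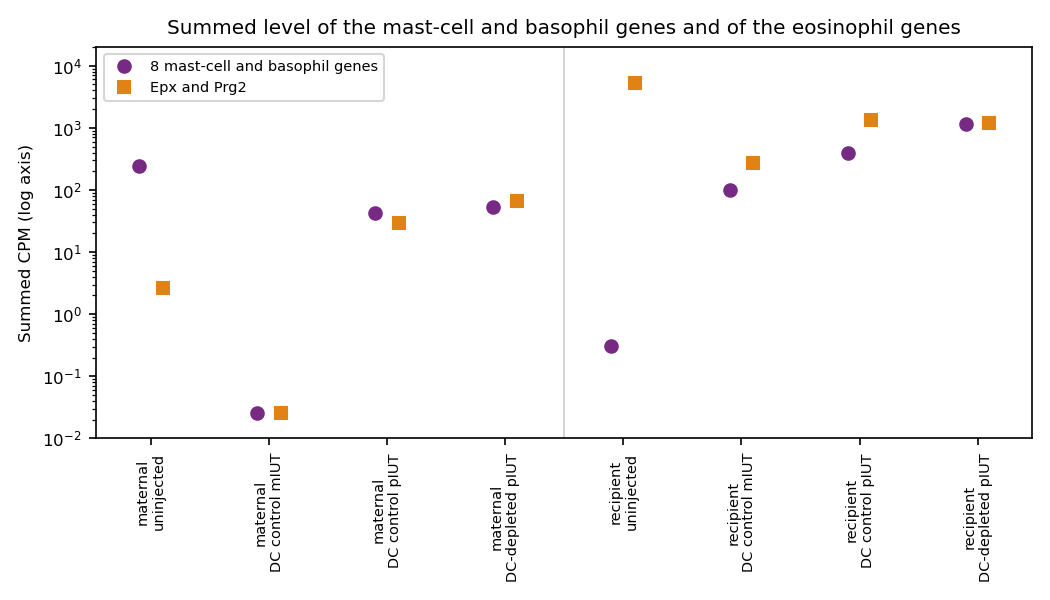
Summed CPM (log axis) of the 8 mast-cell and basophil genes (circles) and of Epx and Prg2 (squares) in each library, 1 point per pooled library. In maternal uninjected the circles lie at 245.9 and the squares at 2.65 CPM, and in recipient uninjected at 0.31 and 5323 CPM; the circle of maternal DC control pIUT, at 43.2 CPM, is Kit alone.

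The first comparison set trafficked maternal against recipient cells in uninjected pups, where microchimerism was natural. Of 9 genes that could be compared, 7 were at least 4-fold higher in the maternal library and 2 were at least 4-fold lower. Over all genes tested in these libraries, 38.7% were at least 4-fold higher and 14.2% at least 4-fold lower. The 7 higher genes were the mast-cell and basophil genes other than Ms4a2, and the 2 lower genes were Epx and Prg2.

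Among the 10 genes, the mast-cell granule genes Cma1 and Cpa3 had the highest levels within the maternal uninjected library. Cma1 was at 93.0 CPM in the maternal library (3618 counts) and had 1 count in the recipient library, a ratio of 4496 with a 95% interval of 806 to 178000. Cpa3 was at 83.4 CPM (3246 counts) against no count, at least 1345-fold higher. The tryptase genes Tpsb2 and Tpsab1, which encode trypsin-like proteases of mast-cell granules and were named after their values were seen, were at 116.3 and 109.3 CPM in the maternal library and had no count in the recipient one. These 2 genes are close relatives, so that their split of reads is uncertain. Of the wider mast-cell protease list, 3 of 5 genes compared were at least 4-fold higher in maternal cells and 1 lower. The mast-cell receptor list had 3 higher and 2 lower of 6. Over all genes the shares were 38.7% higher and 14.2% lower. Per kilobase of exon, the scale on which genes can be compared, Cma1 reached 85.3, Cpa3 52.2, Mcpt8 21.6, Fcer1a 21.3 and Prss34 2.59 CPM in the maternal uninjected library.

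The basophil genes were present in the same library, but unequally. Mcpt8 was at 21.6 CPM against no count in recipient cells, at least 348-fold higher. Prss34 was at 3.91 against 0.27 CPM, 14.5-fold higher (95% interval 8.25 to 27.9). The count of Prss34 was 0.181 times that of Mcpt8 in maternal uninjected (0.151 to 0.215) and exceeded it in each of the recipient libraries of transplanted pups, where the ratio was 2.66, 1.20 and 1.25 in mIUT, pIUT and DC-depleted pIUT. Per kilobase of exon Prss34 remained below Mcpt8 in the latter 2, at 90.7 against 114.6 and 144.7 against 175.7 CPM. Cd200r3, a receptor of basophils and mast cells chosen after its values were seen, was at 22.3 CPM in maternal and at 0 in recipient uninjected cells.

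The IgE receptor chains did not go together. Fcer1a, whose alpha chain binds IgE, was at 21.3 CPM in maternal uninjected (827 counts), and this was its highest level in the 8 libraries. Ms4a2, whose beta chain amplifies the signal, had no count there. In the recipient DC-depleted library the order was the reverse, with Ms4a2 at 24.3 CPM (1331 counts) and Fcer1a at 4.41 CPM (242 counts). Fcer1g, which encodes the gamma chain shared with other Fc receptors, ranged from 56.6 CPM in maternal DC-depleted to 1561 CPM in recipient mIUT.

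Gata2 was at 18.4 CPM in maternal uninjected cells (717 counts) and had no count in recipient uninjected cells, at least 297-fold higher. Kit was at 4.39 CPM (171 counts) against 1 count, a ratio of 212.5 with an interval of 37.6 to 8440. Gata1, the GATA factor of the mast-cell, eosinophil, red-cell and platelet lineages, had 42.0 CPM in the maternal library and 0.93 CPM in the recipient library.

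In recipient uninjected cells the eosinophil genes were among the most abundant transcripts. Prg2 was at 4432 CPM (214316 counts), ranked 14 of all genes by count and took 0.447% of the library (95% Wilson interval 0.445 to 0.449%). Epx was at 891.5 CPM (43113 counts) and ranked 102. In maternal uninjected cells Prg2 was at 2.65 CPM, 1674-fold lower (1380 to 2050), and Epx had no count, at least 11560-fold lower. Other granule genes went the same way: Prg3, a second major basic protein, at 339.2 CPM, and Ear1 and Ear6, ribonucleases of eosinophil granules, at 130.2 and 133.3 CPM in the recipient library, against 0, 0 and 0.57 CPM in the maternal one. These 3 genes were named after their values were seen, and the ribonuclease genes belong to a family of near copies among which reads can be split. Another copy, Ear2, had 0.0207 CPM in recipient uninjected and 17.1 CPM in maternal uninjected cells.

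The surface receptors of eosinophils did not accompany the granule genes. Ccr3 (the eotaxin receptor), Il5ra (the interleukin 5 receptor) and Siglecf, chosen after their values were seen, had no count in recipient uninjected cells. In maternal uninjected cells Il5ra was at 24.5 CPM, Ccr3 at 12.9 CPM and Siglecf at 0. Alox15, a lipoxygenase of eosinophils and macrophages, was at 1789 CPM and Adgre1, the F4/80 antigen of macrophages and eosinophils, at 712.5 CPM in recipient uninjected cells, against 425.9 and 100.4 CPM in maternal ones. Of the 10 genes of the wider eosinophil list 9 could be compared, 3 higher and 6 lower in maternal cells at 4-fold, beside the 38.7% and 14.2% of all genes. The recipient uninjected library also held the neutrophil precursor gene Mpo at 4385 CPM, the liver gene Afp at 9055 CPM and the epithelial keratin genes Krt8 and Krt18 at 1136 and 1262 CPM. In sum the 5 liver markers reached 10180 CPM there against 42.1 CPM in maternal uninjected cells, and the 6 epithelial markers, of which Krt5 and Krt14 were at 0, reached 2478 against 23.4 CPM. Their part in the eosinophil gene levels was not tested.

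**Figure D3:**
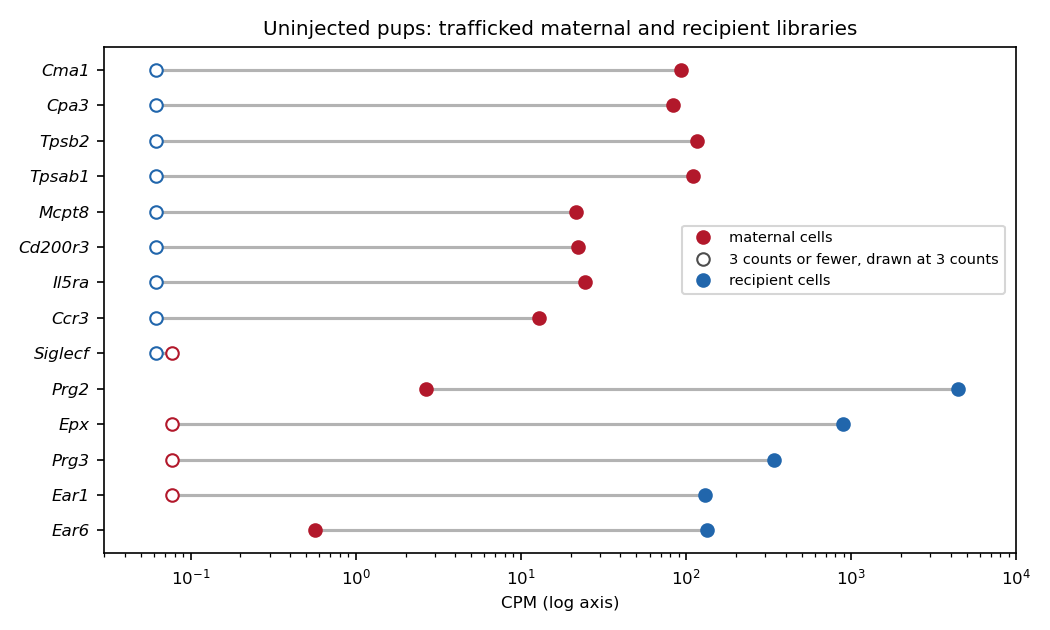
CPM (log axis) of mast-cell, basophil and eosinophil genes in the maternal (red) and recipient (blue) libraries of uninjected pups, joined by a line for each gene; open points are libraries with 3 counts or fewer, drawn at 3 counts. From Cma1 down to Ccr3 the maternal library is higher, Siglecf is undetected in both, and from Prg2 down to Ear6 the recipient library is higher.

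The second set of comparisons asked how the maternal libraries of transplanted pups stood against the maternal uninjected library, which they share. After mIUT none of the 10 genes was detected. All 8 genes that could be compared were at least 4-fold lower, in a pair of libraries where 34.3% of all genes tested were at least 4-fold lower. Cma1 was at least 1200-fold and Cpa3 at least 1077-fold lower, Fcer1a at least 274.3-fold and Gata2 at least 237.8-fold, each with no count. Mcpt8 and Prg2 had 1 count each. Neutrophil genes were high in this library, with S100a9 at 47000 against 952.5 CPM and the 8 neutrophil markers at 112400 against 2170 CPM in sum. The B-cell markers stood at 662.3 against 13100 CPM and the 6 megakaryocyte markers at 0.0517 against 99.8 CPM, while the liver markers stood at 4239 against 42.1 CPM and the epithelial markers at 404 against 23.4 CPM. The part of these cell types in the values was not tested.

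After DC control pIUT, 3 genes were detected in maternal cells, namely Kit, Prg2 and Epx. Of 9 genes compared, 3 were at least 4-fold higher and 6 at least 4-fold lower, beside 22.9% and 22.5% of all genes. In the same pair 6 of 6 B-cell (169.7 against 13100 CPM in sum), 7 of 7 T-cell and 5 of 6 macrophage markers were at least 4-fold lower, and their part was not tested. Kit was at 43.2 CPM (2187 counts), 9.84-fold above maternal uninjected (8.42 to 11.6). Prg2 was at 23.7 CPM (1198 counts), 8.95-fold above (7.31 to 11.1), and Epx at 6.15 CPM (311 counts), at least 79.8-fold above. Cpa3, Cma1, Mcpt8, Prss34, Fcer1a, Ms4a2 and Gata2 had no count. Of the wider lists, the mast-cell protease genes had 0 higher and 5 lower of 5 compared. The mast-cell surface genes had 2 higher and 1 lower of 6, with Il1rl1 of that list at 15.2 against 4.83 CPM. Kit therefore stood without the other mast-cell and basophil genes of the 10, but not without every mast-cell surface gene. Its library held Gata1 at 117.3 CPM and the red-cell factor Klf1 at 334.9 CPM. The 7 red-cell markers summed to 99590 CPM there, to 146300 CPM in maternal DC-depleted and to 67690 CPM in maternal uninjected cells. The library also had the highest level of the melanocyte gene Pmel, at 7.02 against 0.51 CPM in maternal uninjected cells, and the highest sum of the 5 mesenchymal markers, at 95.1 against 11.9 CPM. The part of these cell types in the Kit level was not tested. It was the 1 gene of the list that was higher in maternal than in recipient cells of pIUT pups, 5.49-fold (4.90 to 6.15), with 9 lower; the backgrounds were 17.6% and 23.5%.

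After DC-depleted pIUT, 7 of the 10 genes were detected in maternal cells, and Fcer1a, Gata2 and Epx had no count. Against maternal uninjected, 3 of 9 genes compared were at least 4-fold higher and 5 at least 4-fold lower, beside 21.8% and 24.1% of all genes. Prg2 was at 65.4 CPM (2161 counts), 24.7-fold higher (20.3 to 30.4), and Kit at 29.1 CPM, 6.63-fold higher (5.63 to 7.85). Ms4a2 was at 0.76 CPM on 25 counts, at least 9.82-fold higher, a call that a floor of 10 counts ended. Cpa3 was at 3.09 CPM, 27.0-fold lower (22.2 to 33.2), Cma1 at 12.5 CPM, 7.42-fold lower (6.70 to 8.23), and Mcpt8 at 3.94 CPM, 5.48-fold lower (4.55 to 6.65). Prss34, at 3.48 against 3.91 CPM, differed by less than counting error (1.12-fold lower, 0.874 to 1.44). Of the wider basophil list 0 were higher and 6 lower of 7 compared. In this pair 4 of 4 leukocyte markers (476.6 against 7269 CPM in sum) and 6 of 6 B-cell markers (62.1 against 13100 CPM) were at least 4-fold lower and 5 of 8 neutrophil markers at least 4-fold higher, and their part was not tested.

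Within the maternal cells of pIUT pups, DC depletion was compared with its saline control. Of 8 genes compared, 5 were at least 4-fold higher and 1 at least 4-fold lower in the DC-depleted library, beside 24.4% and 26.3% of all genes. The 5 higher genes were absent in the control library: Cma1 was at least 211.4-fold, Mcpt8 at least 66.4-fold, Prss34 at least 58.7-fold, Cpa3 at least 52.1-fold and Ms4a2 at least 12.8-fold higher, the last a call that a floor of 10 counts ended. Their counts in the DC-depleted library were 414, 130, 115, 102 and 25. Epx went the other way, from 311 counts to none, at least 67.7-fold lower. Prg2 was 2.76-fold higher (2.57 to 2.97) and Kit 1.48-fold lower (1.38 to 1.60). In the same pair 7 of 8 neutrophil markers were at least 4-fold higher in the DC-depleted library (10420 against 1351 CPM in sum) and 3 of 4 leukocyte markers at least 4-fold lower (476.6 against 1466 CPM), and their part in these values was not tested. Of the wider lists, 5 of 6 mast-cell protease genes compared were at least 4-fold higher and 0 lower, but the basophil list had 1 higher and 4 lower of 6. The mast-cell receptor list had 0 higher and 2 lower of 5 and the IgE signalling list 0 higher and 6 lower of 10. The wider eosinophil list had 6 higher and 2 lower of 10, although Epx was lower. Prg2 without Epx also marked the maternal uninjected library, where Prg2 had 103 counts. In the other libraries with counts of both, Prg2 exceeded Epx 3.85-fold in maternal pIUT cells, 4.97-fold in recipient uninjected, 10.6-fold in recipient mIUT, 9.30-fold in recipient pIUT and 7.44-fold in recipient DC-depleted cells.

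In the recipient libraries the mast-cell and basophil genes formed a common order. For 7 of the 10 genes, Cpa3, Mcpt8, Prss34, Ms4a2, Fcer1a, Gata2 and Cma1, the level was lowest in uninjected, next in mIUT, then pIUT, and highest in DC-depleted pIUT. This order, chosen after the values were seen, held for 8.09% of 20159 genes detected in at least 1 recipient library. Cpa3 had 0, 18.9, 78.5 and 345.2 CPM in that order, Cma1 0.0207, 9.83, 32.7 and 264.7 CPM. Mcpt8 had 0, 10.9, 114.4 and 175.3 CPM, and Prss34 0.27, 29.0, 136.9 and 218.5 CPM. Once the uninjected library is set aside, Cma1 made its larger step in fold between pIUT and DC-depleted pIUT, and Mcpt8 and Prss34 between mIUT and pIUT. As folds the steps of Cpa3 were nearly equal, and the larger of them was the last one as scaled here and the first one under library size alone. The IgE receptor chains were lower, with Ms4a2 at 0, 0.77, 11.1 and 24.3 CPM and Fcer1a at 0, 0.21, 1.86 and 4.41 CPM. Gata2 had 0, 3.59, 6.22 and 34.7 CPM. Kit left the order, with 0.0207, 27.3, 7.88 and 91.0 CPM.

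Against recipient uninjected, which these comparisons share, the count of genes at least 4-fold higher was 7 after mIUT, 8 after pIUT and 8 after DC-depleted pIUT, of 10 compared each time. This must be read beside backgrounds of 42.6%, 41.7% and 42.9% of all genes. The uninjected library held few genes, and the part of this in these shares was not tested. The count at least 4-fold lower was 2, 1 and 2, beside 16.1%, 12.2% and 9.99%, and the genes were Epx each time and Prg2 in mIUT and DC-depleted pIUT. Prg2 lay near 4-fold after both pIUT treatments, passing after DC control pIUT under DESeq2 size factors and not passing after DC-depleted pIUT under library size alone. The remaining gene after mIUT was Fcer1a, on 6 counts, at least 3.37-fold higher. The wider basophil list went the other way after mIUT, with 1 gene higher and 4 lower of 6 and a median log2 fold of -2.58 against 1.27 over all genes. In that pair 7 of 7 red-cell markers were at least 4-fold lower (155.6 against 92240 CPM in sum), the liver markers stood at 25.6 against 10180 CPM and the neutrophil markers at 186000 against 14040 CPM. After pIUT 5 of 5 liver and 4 of 6 macrophage markers were at least 4-fold lower and 5 of 7 T-cell markers higher. After DC-depleted pIUT 5 of 5 mesenchymal and 5 of 8 progenitor markers were higher, and 1 progenitor and 5 of 7 red-cell markers lower. The part of these cell types was not tested. Epx was 38.4-fold lower after mIUT (35.6 to 41.6), 6.96-fold lower after pIUT (6.77 to 7.16) and 6.22-fold lower after DC-depleted pIUT (6.07 to 6.37). Prg2 was 18.0-fold (17.6 to 18.5), 3.72-fold (3.69 to 3.76) and 4.16-fold lower (4.12 to 4.19). Even so, Prg2 remained the leading gene of the list in each recipient library, at 246.0, 1190 and 1067 CPM, and ranked 763, 69 and 54 of all genes by count.

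The comparison of DC-depleted with DC control pIUT in recipient cells involved 2 libraries in which all 10 genes were detected. Of the 10, 4 were at least 4-fold higher and 0 at least 4-fold lower in the DC-depleted library, beside 13% and 6.53% of all genes. The 4 were Kit, Cma1, Gata2 and Cpa3. Kit was 11.5-fold (10.4 to 12.9), Cma1 8.09-fold (7.67 to 8.54), Gata2 5.58-fold (4.92 to 6.35) and Cpa3 4.40-fold higher (4.25 to 4.56). The basophil proteases differed less, with Mcpt8 1.53-fold (1.48 to 1.59) and Prss34 1.60-fold higher (1.55 to 1.65). The receptor chains lay between, Fcer1a at 2.37-fold (1.84 to 3.08) and Ms4a2 at 2.18-fold (1.97 to 2.43). The eosinophil genes were nearly level, with Epx 1.12-fold higher (1.08 to 1.16) and Prg2 1.12-fold lower (1.10 to 1.13), the latter with a change of sign under library size alone.

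The wider lists followed this only in part. Of 8 mast-cell protease genes compared, 5 were at least 4-fold higher and 0 lower, with a median log2 fold of 2.53 against 0.12 over all genes. Tpsb2 was 8.94-fold (8.52 to 9.38), Tpsab1 8.75-fold (8.24 to 9.29) and Mcpt4, a chymase, 8.13-fold higher (7.08 to 9.38), all 3 chosen after their values were seen. Of this list the proteoglycan gene Srgn was highest in CPM, at 625.4 against 302.5 CPM, and Ctsg, which neutrophil precursors also use, was 24.6-fold higher. The mast-cell receptor genes Mrgprb1 and Mrgprb2 were detected in DC-depleted cells at 1.62 and 3.56 CPM and had no count in the control. Of 7 basophil and 10 eosinophil genes compared, 0 passed 4-fold either way, beside 13% higher and 6.53% lower over all genes. Counts of 0 among so few genes lie near these shares. The medians were -0.64 and 0.21, so that the basophil list lay below all genes although Mcpt8 and Prss34 did not. Ccl3 and Ccl4, chemokines that many activated leukocytes share, had 31.0 and 37.6 CPM in DC-depleted and 58.2 and 55.3 CPM in control cells. Cd200r3 was 1.88-fold higher (1.72 to 2.05), Prg3 was at 46.6 against 36.9 CPM, and Ear1 at 57.2 against 55.7 CPM.

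Markers of several other cell types differed in this pair of libraries as well. Of 8 progenitor markers 5 were at least 4-fold higher in DC-depleted recipient cells and 0 lower, while Cd34 was 3.41-fold and the factor Gata1 5.11-fold higher. The 8 neutrophil markers split, with 4 at least 4-fold higher (among them Mpo, 25.2-fold) and 4 at least 4-fold lower, and their sum was 19770 against 32870 CPM. The summed level of the 8 progenitor markers was 330.7 CPM in DC-depleted and 162.2 CPM in control cells, and among the other 6 libraries it ran from 25.2 to 248.4 CPM. Liver genes were higher as well, with a summed level of 553.1 against 4.98 CPM over 5 markers, and the T-cell markers were lower, at 1219 against 4961 CPM over 7 genes. Of 6 megakaryocyte markers 5 were at least 4-fold higher (64.7 against 14.1 CPM in sum), as were 5 of 5 mesenchymal markers (43.7 against 0.86 CPM). Of 5 melanocyte markers, a lineage that also uses Kit, none had a count in DC-depleted recipient cells, against a sum of 1.75 CPM in the control. The part of these cell types in the differences was not tested. Genes of progenitors (Kit, Gata2, Cd34) and proteases of maturing mast cells (Cma1, Tpsb2, Mcpt4) were thus higher in the same library.

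The recipient DC-depleted library also gave the fullest view of how the 10 genes rank per kilobase of exon. Prg2 led at 1003 CPM per kilobase, followed by Cma1 at 242.8, Cpa3 at 215.9, Mcpt8 at 175.7 and Prss34 at 144.7. Epx was at 52.4, Kit at 9.61, Ms4a2 at 8.63, Fcer1a at 4.42 and Gata2 at 4.33 CPM per kilobase. Granule proteins thus stood above receptors and Gata2. In recipient pIUT cells the basophil proteases led the mast-cell ones on this scale, with Mcpt8 at 114.6 and Prss34 at 90.7 against Cpa3 at 49.1 and Cma1 at 30.0 CPM per kilobase.

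**Figure D4:**
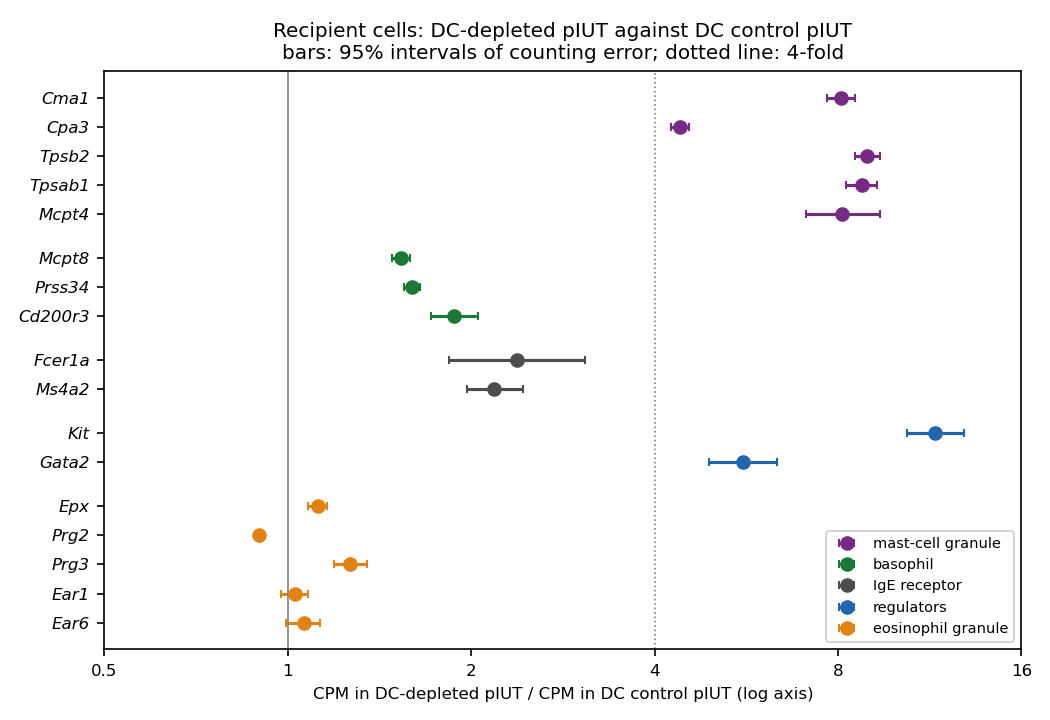
Ratio of CPM in DC-depleted pIUT to DC control pIUT recipient cells (log axis) with 95% intervals of counting error, 1 pooled library each; the solid line marks equal levels and the dotted line 4-fold. The mast-cell granule genes drawn lie between 4.40 and 8.94, Mcpt8, Prss34 and Cd200r3 between 1.53 and 1.88, and the eosinophil genes drawn close to 1. The genes outside the list of 10 were chosen after their values were seen, and others of the wider lists lie outside these ranges, among them Ctsg at 24.6-fold and Ccl3 and Ccl4, which were lower.

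Ratios of counts within a library do not depend on how libraries are scaled, and they separated the mast-cell from the basophil protease. Cma1 had 4.31 counts for each count of Mcpt8 in maternal uninjected (3.99 to 4.65) and 3.18 in maternal DC-depleted cells (2.61 to 3.91). In recipient cells the ratio was 0.904 after mIUT (0.767 to 1.07), 0.286 after pIUT (0.270 to 0.303) and 1.51 after DC-depleted pIUT (1.47 to 1.55). Both maternal libraries thus stood above the 3 recipient libraries in this ratio, by more than counting error. Cpa3 per Mcpt8 did not keep that order, at 3.86 in maternal uninjected, 0.785 in maternal DC-depleted and 1.97 in recipient DC-depleted cells.

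**Figure D5:**
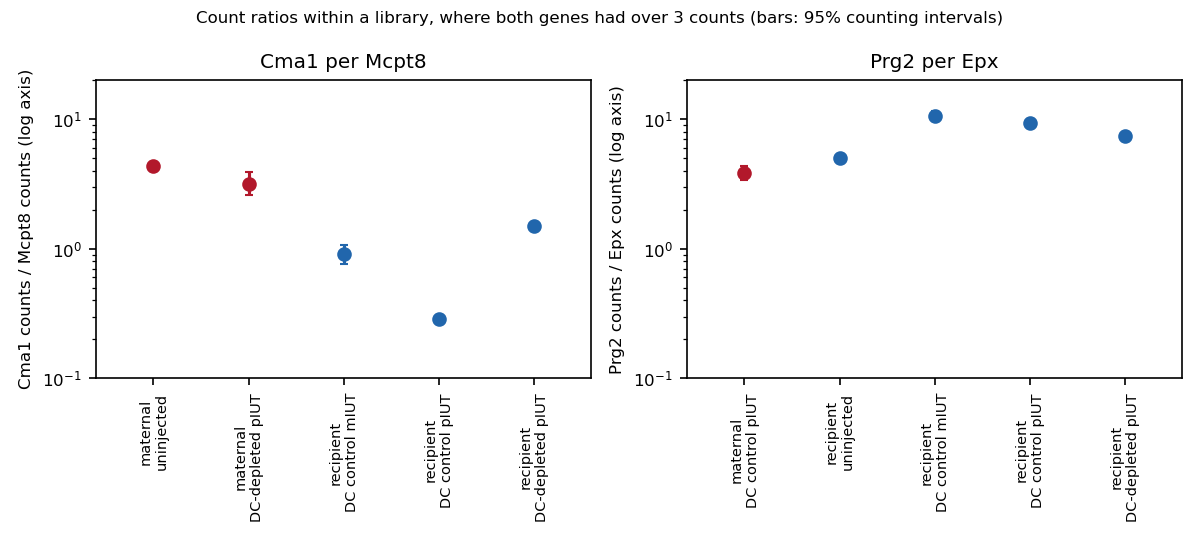
Counts of Cma1 per count of Mcpt8 (left) and of Prg2 per count of Epx (right), on log axes, in each library where both genes had more than 3 counts (red maternal, blue recipient); bars are 95% counting intervals. Cma1 per Mcpt8 is 4.31 and 3.18 in the maternal libraries and 0.904, 0.286 and 1.51 in the recipient libraries.

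Maternal against recipient cells was also compared after transplantation. After mIUT 9 of the 10 genes were at least 4-fold lower in maternal cells and 0 higher, beside 33.6% lower and 12.3% higher over all genes. After DC-depleted pIUT 9 were again at least 4-fold lower and 0 higher, beside 25.7% lower and 9.31% higher. A count of 0 of 10 lies near these shares of higher genes. There Cpa3 was 111.8-fold (92.0 to 137), Mcpt8 44.5-fold (37.5 to 53.4), Cma1 21.1-fold (19.1 to 23.3) and Prg2 16.3-fold lower (15.6 to 17.0) in maternal cells. Kit was 3.12-fold lower (2.91 to 3.35) and passed 4-fold under library size alone. Cpa3, Cma1, Mcpt8, Prss34 and Gata2 were thus at least 4-fold higher in maternal cells of uninjected pups and at least 4-fold lower in maternal cells of each transplanted group. Fcer1a did not pass 4-fold after mIUT, on 0 against 6 counts, Kit went the other way after pIUT, and Ms4a2 could not be compared in uninjected pups. Other cell types differed between the origins too: after mIUT 5 of 7 red-cell markers were at least 4-fold higher in maternal cells, after pIUT 8 of 8 neutrophil (1351 against 32870 CPM in sum) and 7 of 7 T-cell markers were lower, and after DC-depleted pIUT 3 of 4 leukocyte and 8 of 8 progenitor markers were lower. Their part was not tested. Epx and Prg2 were lower in maternal cells in all 4 pairs.

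Over the 8 libraries, log2 levels of Cpa3 and Cma1 had a Pearson correlation of 0.97 and those of Epx and Prg2 0.90, whereas Cpa3 and Epx had 0.16 and Cpa3 and Kit 0.51. These values describe 8 pooled libraries, several of them at 0 for the same genes. Among 13280 genes searched, the 3 nearest to Cpa3 were Ifi211 (0.98), Mcpt8 (0.98) and Tpsab1 (0.98), those nearest to Mcpt8 were Tnfrsf25, Scart1 and Acad10 (0.99 each) and those nearest to Epx were Ifih1 (0.98), Usp2 (0.96) and Tmem209 (0.95). With so few libraries many genes reach such values.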

How the data were processed

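Bulk RNA of 4 maternal and 4 recipient libraries, 1 per origin and treatment and each pooled from several pups, was analysed. The authors deposited expected counts per gene, made with an nf-core RNA-seq pipeline on GRCm39 and GENCODE M26. The study's methods name featureCounts, but the deposited estimated counts are not whole, as salmon gives them, so they were rounded. All 8 columns were used.

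Counts were scaled with edgeR 4.0.16 (R 4.3.3, TMM) to CPM over 25066 genes with a count, of which identifiers and exon lengths came from GENCODE M39 (97.99% matched by identifier). A gene was compared where 1 of 2 libraries had more than 3 counts. A difference was called at 4-fold, with no p-value, since there was 1 library per group. Exact conditional binomial intervals (95%) and Wilson intervals for shares used scipy 1.17.1. Reads without molecular identifiers are not independent molecules, so these cover counting error only. The fold calculation was tested on simulated counts. Promoter windows were the 200 bases before the start of each canonical transcript, from the GRCm39 genome.

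The 10 genes, 9 lists of related genes and 13 marker lists were chosen with earlier results of these data known. All 10 were named, with the 2 genes of highest CPM of each related list, the highest of each marker list and the 3 most correlated genes (log2 of CPM plus 0.5) for Cpa3, Mcpt8 and Epx. Others were named after their values were seen. Alternatives were DESeq2 1.42.0 size factors, library size alone, TMM on genes with 10 counts in 2 libraries, a 2-fold threshold, a floor of 10 counts and edgeR's fold at a dispersion of 0.4.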

Additional observations from a re-analysis of the deposited data

Results flagged for a closer look

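In 19 cases a gene was at least 4-fold away from uninjected in maternal cells and at least 4-fold away in the opposite direction in recipient cells after the same treatment. The values are log2 folds relative to uninjected pups, taken within each origin, with libraries of 3 counts or fewer set to 3 counts. After DC control mIUT, the maternal and the recipient fold were -10.1 and 8.25 for Cpa3, -8.12 and 7.45 for Mcpt8, -5.66 and 6.75 for Prss34, -7.89 and 5.86 for Gata2, -5.83 and 8.78 for Kit and -10.2 and 7.31 for Cma1. After DC control pIUT, the maternal and the recipient fold were -10.5 and 10.3 for Cpa3, -8.51 and 10.8 for Mcpt8, -6.04 and 8.99 for Prss34, -8.49 and 4.91 for Fcer1a, -8.28 and 6.65 for Gata2, -10.6 and 9.04 for Cma1 and 6.32 and -2.8 for Epx. After DC-depleted pIUT, the maternal and the recipient fold were -4.76 and 12.4 for Cpa3, -2.45 and 11.5 for Mcpt8, -7.87 and 6.15 for Fcer1a, -7.66 and 9.13 for Gata2, -2.89 and 12.1 for Cma1 and 4.63 and -2.05 for Prg2. With 1 library for each origin and treatment the difference between the origins was not tested, and all of the values rest on the 2 uninjected libraries. The share of all genes with such opposite folds was not computed. After mIUT, pIUT and DC-depleted pIUT, 34.3%, 22.5% and 24.1% of all genes were at least 4-fold lower in maternal cells. In recipient cells 42.6%, 41.7% and 42.9% were at least 4-fold higher, so the count cannot be read as particular to these genes. In 17 of the 19 cases the mast-cell, basophil and progenitor genes were lower in maternal and higher in recipient cells, and Epx after DC control pIUT and Prg2 after DC-depleted pIUT went the other way.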

How the results depend on the processing

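Directions were the same under each of the 3 other scalings for all 100 folds of the 10 genes that passed 4-fold, and 100, 99 and 100 of them still passed under DESeq2 size factors, library size alone and TMM on filtered genes. The 1 that did not was Prg2 in DC-depleted pIUT against uninjected recipient cells, which took the count of lower genes from 2 to 1 under library size alone. The count of lower genes in DC control pIUT against uninjected recipient cells was 2 under DESeq2 size factors and 2 at a 2-fold threshold, against 1 as reported, because Prg2 lay near 4-fold. Of 113 folds, 16, 32 and 2 were counted as moved under these scalings. A fold with a counting interval was counted when it left that interval. A bound has no interval and was counted when it lay under 4-fold. Fcer1a in recipient mIUT against uninjected cells was counted in this way each time, although it lay under 4-fold as reported too. The median log2 fold of all genes moved by up to -0.63 under library size alone and 0.31 under DESeq2 size factors, which is not small beside the folds of Mcpt8, Prss34, Epx and Prg2 between the DC-depleted and control recipient libraries or of Kit and Prg2 between the maternal ones. Under library size alone Prg2 in that recipient pair changed sign, from -0.16 to 0.07 (log2), and in the maternal pair Kit went from -0.57 to -1.15 and Prg2 from 1.47 to 0.89. Under the same scaling Kit joined the lower genes between origins after DC-depleted pIUT, 10 instead of 9. A floor of 10 counts took the higher genes from 3 to 2 in maternal DC-depleted pIUT against uninjected, from 5 to 4 against control and from 7 to 6 in recipient mIUT against uninjected, and the lower genes between origins after mIUT from 9 to 8, each time by loss of Ms4a2. The number of the 10 genes in the common order of the recipient libraries was 7 under each scaling, an alternative chosen after seeing the data. No paired analysis was made, and every comparison made here set 1 library against 1, which left no replicate to omit. A test of origin with the 4 treatments as pairs was not run. The sparse recipient uninjected library enters 4 of the 12 comparisons, the 3 of recipient libraries against it and that of the origins in uninjected pups.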

Other observations

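Genes around the lineage genes were also measured. Ligands were scarce: Il3, Il5 and Ccl11 had no count in any library. Kitl, the ligand of Kit, was highest in recipient uninjected cells at 25.6 CPM, and Ccl24, an eotaxin, at 54.2 CPM in the same library. Some genes for mediators of these cells were highest in a library rich in neutrophil transcripts: Alox5ap and Alox5, of leukotriene synthesis, were highest in recipient mIUT cells at 2422 and 905.8 CPM, and Hdc, which makes histamine and was named after its values were seen, was also highest there at 637.3 CPM and was at 303.9 CPM in maternal mIUT cells, in which none of the 10 genes was detected. S100a9 was at 73700 CPM in recipient mIUT cells.

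The kinase gene Lyn, which starts IgE receptor signals, was highest in recipient mIUT cells at 433.2 CPM and lowest in maternal DC-depleted cells at 12.8 CPM. The growth factor receptor chains Csf2ra and Csf2rb ranged from 4.69 to 289.5 and from 0.70 to 281.6 CPM, lowest in maternal DC-depleted and highest in recipient mIUT cells. Irf8, a transcription factor of several myeloid lineages, was highest in maternal uninjected cells at 420.3 CPM and lowest in maternal DC-depleted cells at 6.09 CPM. Cd63, found on granules of mast cells and basophils and of other cells, ranged from 65.8 to 667.3 CPM.

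Markers of other lineages ran as follows. Coro1a, of leukocytes, was lowest in maternal DC control pIUT cells at 260.2 CPM. Lck was highest in recipient pIUT cells at 1706 CPM, Ighm in maternal uninjected cells, Pf4 in recipient uninjected cells at 340.9 CPM, and Lyz2 in recipient mIUT cells. Pmel, Pdgfra and Pecam1 reached 7.02, 41.5 and 42.6 CPM at most.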
